A study of Mus musculus with 20 samples.

Results

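Nos2, Duox2, Duoxa2, Nox1, Lcn2, Gpx2 and Sod2 are 7 genes through which the gut lining makes, or defends itself against, reactive oxygen and nitrogen. They were taken by name from the 35204 genes of the gene-level table, as genes known to respond to microbes, and were followed in every mouse of the 4 groups. They were chosen with earlier results of these data known. Of the 16306 genes that reached a level of 0.5 CPM (counts scaled to a common library size) in at least 1 mouse and were tested, 6 are in this set, and Nox1 stayed below that level.

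Intestinal epithelial cells and resident phagocytes release oxidants where bacteria come close to the tissue. The dual oxidase Duox2, which reaches the apical membrane only with its maturation factor Duoxa2, and the oxidase Nox1 make hydrogen peroxide or superoxide, and the inducible nitric oxide synthase Nos2 makes nitric oxide from arginine. Lcn2 binds bacterial siderophores and so keeps iron from microbes, whereas the glutathione peroxidase Gpx2 and the mitochondrial superoxide dismutase Sod2 remove peroxide and superoxide inside the cell.

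Ileum RNA was sequenced from 20 C57Bl6 mice, 5 in each group, which were young adult females. All were fed an amino acid-defined diet for 3 weeks, either a control diet (CD) or a tryptophan-deficient diet (TDD), and were either left specific pathogen-free (SPF) or given a cocktail of ampicillin, vancomycin, gentamycin, metronidazole and neomycin (ABX). The groups therefore were CD, TDD, CD+ABX and TDD+ABX, and the comparisons ask how dietary tryptophan alters ileal gene expression with and without an intact microbiota. Each mouse was a separate library, with between 36676963 and 58662617 estimated counts.

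The tissue held whole ileum wall, so a lower level can reflect fewer cells of a type or less RNA per cell, and these cannot be told apart. The ileal bile acid genes, which mark the distal ileum, were low in SPF mice. Fabp6, the ileal bile acid-binding protein, lay between 0.238 and 3.91 CPM in the 10 SPF mice and between 2.65 and 144 CPM in the 10 ABX-treated mice. Slc10a2, the apical bile acid transporter, lay between 1.38 and 8.8 CPM and between 13.2 and 86 CPM, respectively.

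Per transcript length, Gpx2 was the most abundant of the 7 genes, with a median of 215 TPM (transcript abundance scaled for length and library size) over the 20 mice. Sod2 followed at 26.2 TPM. The others were far lower, with medians of 4.05 TPM for Duox2, 2.94 TPM for Lcn2, 1.68 TPM for Nos2, 1.55 TPM for Duoxa2 and 0.152 TPM for Nox1. Nos2, Duoxa2 and Duox2 varied widely between mice, from 0.525 to 22.8 TPM, from 0.494 to 18.5 TPM and from 1.34 to 38.0 TPM, so that the order of Duox2, Lcn2, Nos2 and Duoxa2 changed from mouse to mouse. Sod2 had the narrowest range for its level, from 21.03 to 31.7 TPM.

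**Figure D1:**
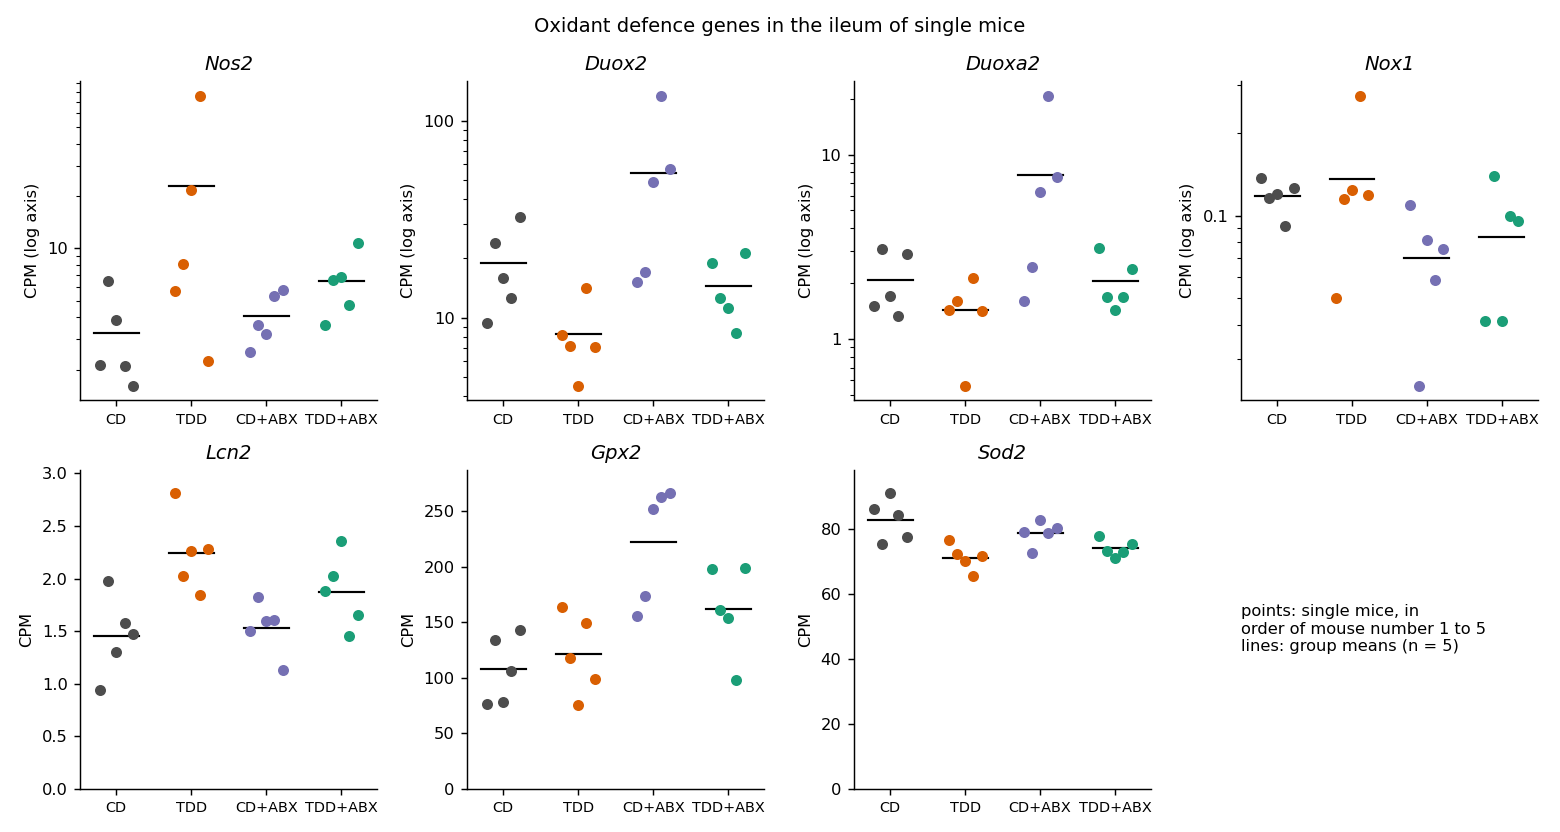
CPM of each of the 7 genes in single mice, with a line at the mean of each group of 5 mice; axes are logarithmic where so labelled and start at 0 otherwise. TDD mouse 4 stands at 76 CPM for Nos2, CD+ABX mouse 4 stands at 134 CPM for Duox2, and Sod2 stays between 65.3 and 90.8 CPM in every mouse.

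Duox2 and Duoxa2 lie head to head on chromosome 2 of GRCm38 (Duox2, ENSMUSG00000068452.8, 122279247 to 122298449 on the minus strand; Duoxa2, ENSMUSG00000027225.7, 122298900 to 122302885 on the plus strand). In the GENCODE M21 annotation, 450 bases separate them. Gpx2 (ENSMUSG00000042808.8) lies on chromosome 12, from 76792333 to 76795554 on the minus strand. The 250 bases before the RefSeq start sites of Duoxa2 (chr2:122298650-122298899, plus strand) and Gpx2 (chr12:76795555-76795804, minus strand), from RefSeq on GRCm38.p6, are shown because these genes moved together with Duox2 across mice, and the Duoxa2 stretch is the part of the gap next to Duoxa2. Capitals mark the only match to the motifs searched.
Duoxa2: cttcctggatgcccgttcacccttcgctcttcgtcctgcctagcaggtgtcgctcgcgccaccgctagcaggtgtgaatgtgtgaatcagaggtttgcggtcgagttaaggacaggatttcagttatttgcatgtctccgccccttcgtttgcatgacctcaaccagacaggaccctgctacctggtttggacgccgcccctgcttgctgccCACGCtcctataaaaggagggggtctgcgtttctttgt
Gpx2: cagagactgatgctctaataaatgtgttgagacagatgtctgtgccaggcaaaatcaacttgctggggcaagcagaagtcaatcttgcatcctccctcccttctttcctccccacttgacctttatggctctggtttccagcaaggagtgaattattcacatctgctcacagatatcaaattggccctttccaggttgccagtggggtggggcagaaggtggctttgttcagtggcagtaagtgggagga

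Both strands were searched for 4 motifs, namely the STAT site TTCNNNGAA, the antioxidant response element TGACNNNGC, the aryl hydrocarbon receptor (AhR) core GCGTG and the NF-kB site. The AhR core was found at bases -38 to -34 of Duoxa2, counted from the start site, on the minus strand of the gene, as the letters CACGC. It is a short motif that 28.2% of all 32851 windows of this length held. The Gpx2 window and the RefSeq window of Duox2 held none of the 4. The NF-kB site, present in 9.55% of all windows, was matched in the windows of Lcn2 (GGAGTCCTCC, bases -43 to -34), Nox1 (GGAAAACCCC, bases -91 to -82) and Sod2 (GGGGTTCCCC, bases -83 to -74). Sod2 alone among the 6 windows also held a STAT site (TTCCCAGAA, bases -185 to -177), which 7.02% of all windows held, and it had 2 AhR cores. The antioxidant response element, in 10.2% of all windows, was in none of the 6. The windows were placed by RefSeq start sites. Those of Lcn2, Nox1 and Sod2 lie inside the GENCODE M21 spans of these genes, and so does most of that of Duox2. Such matches are only letters in a window and do not show binding.

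Nos2 (ENSMUSG00000020826.8, chromosome 11, 78920787 to 78960254, plus strand) was the gene of the set that was higher by at least 2-fold after TDD feeding in SPF mice, with a very unequal response between mice. Lcn2 was also higher there, by less than 2-fold. In CD mice 1 to 5 Nos2 stood at 2.12, 6.53, 3.85, 2.09 and 1.62 CPM. In TDD mice 1 to 5 it stood at 5.72, 8.11, 21.6, 76 and 2.26 CPM. Mice 3 and 4 of the TDD group were above every CD mouse, as was mouse 2, whereas mice 1 and 5 lay within the CD range, so the groups overlapped.

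The mean over 5 mice was 3.24 ± 2.03 CPM (SD) in the CD group, against 22.7 ± 30.7 CPM (SD) in the TDD group. The log2 fold change was 2.80 with a standard error of 0.70 (q = 0.0109, from the quasi-likelihood test of edgeR, adjusted after Benjamini and Hochberg over all tested genes), which is a call at q below 0.05 and a fold change of at least 2. Without TDD mouse 4 the log2 fold change was 1.54 and was no longer called (q = 0.061, edgeR). The call was also lost when only the SPF groups were fitted (q = 0.0689, edgeR), with limma-voom (q = 0.143) and with limma on log2(TPM + 1) (q = 0.0828), and it held with DESeq2 (q = 0.000602).

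With ABX, Nos2 showed no such spread. CD+ABX mice 1 to 5 stood at 2.53, 3.62, 3.23, 5.33 and 5.77 CPM. TDD+ABX mice 1 to 5 stood at 3.64, 6.58, 6.86, 4.75 and 10.8 CPM. The highest ABX-treated mouse was below the 2 highest TDD mice without ABX, and all 20 mice had detectable Nos2.

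The diet difference in ABX-treated mice had a log2 fold change of 0.66 with a standard error of 0.66 (q = 0.693, edgeR). The difference between the diet effects with and without ABX was -2.14 on the log2 scale with a standard error of 0.94, and it did not pass over all genes (edgeR's test across all genes, adjusted p = 0.502). ABX on TDD gave a log2 fold change of -1.80 (q = 0.0712, edgeR), which passed with DESeq2 (q = 0.0425), and which was -0.53 without TDD mouse 4 (q = 0.507, edgeR). Averaged over SPF and ABX-treated mice, Nos2 was 3.33-fold higher on TDD (log2 fold change 1.73, standard error 0.48, q = 0.0167, edgeR). This call was kept in all 20 fits that left out 1 mouse, with log2 fold changes from 1.10 to 1.94. It was lost with limma-voom (q = 0.153) and with limma on log2(TPM + 1) or log2(TPM + 0.1).

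TDD mouse 4 also had the most Reg3b (7580 CPM), Reg3g (1875 CPM) and Saa1 (3.77 CPM) of all mice. TDD mouse 3, which had the second highest Nos2, had 577 CPM of Reg3b, below all CD mice (636 to 1064 CPM). The 8 markers of B cells and lymphoid follicles summed to 5.47, 120, 83.5, 179 and 141 CPM in TDD mice 1 to 5 and to between 5.22 and 116 CPM in CD mice. Their sum was highest in TDD mouse 4, which had the most Nos2, and second highest of its group in TDD mouse 5, which had the least. The 12 macrophage markers summed to between 142 and 251 CPM in TDD mice and between 247 and 318 CPM in CD mice. Of the 10 neutrophil markers, S100a8, S100a9, Ly6g, Elane, Ngp and Camp were too low to test, none above 0.221 CPM in any mouse, and the list summed to between 3.36 and 5.62 CPM in TDD mice and between 3.61 and 5.43 CPM in CD mice. The part of these cells in the Nos2 difference was not tested.

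**Figure D2:**
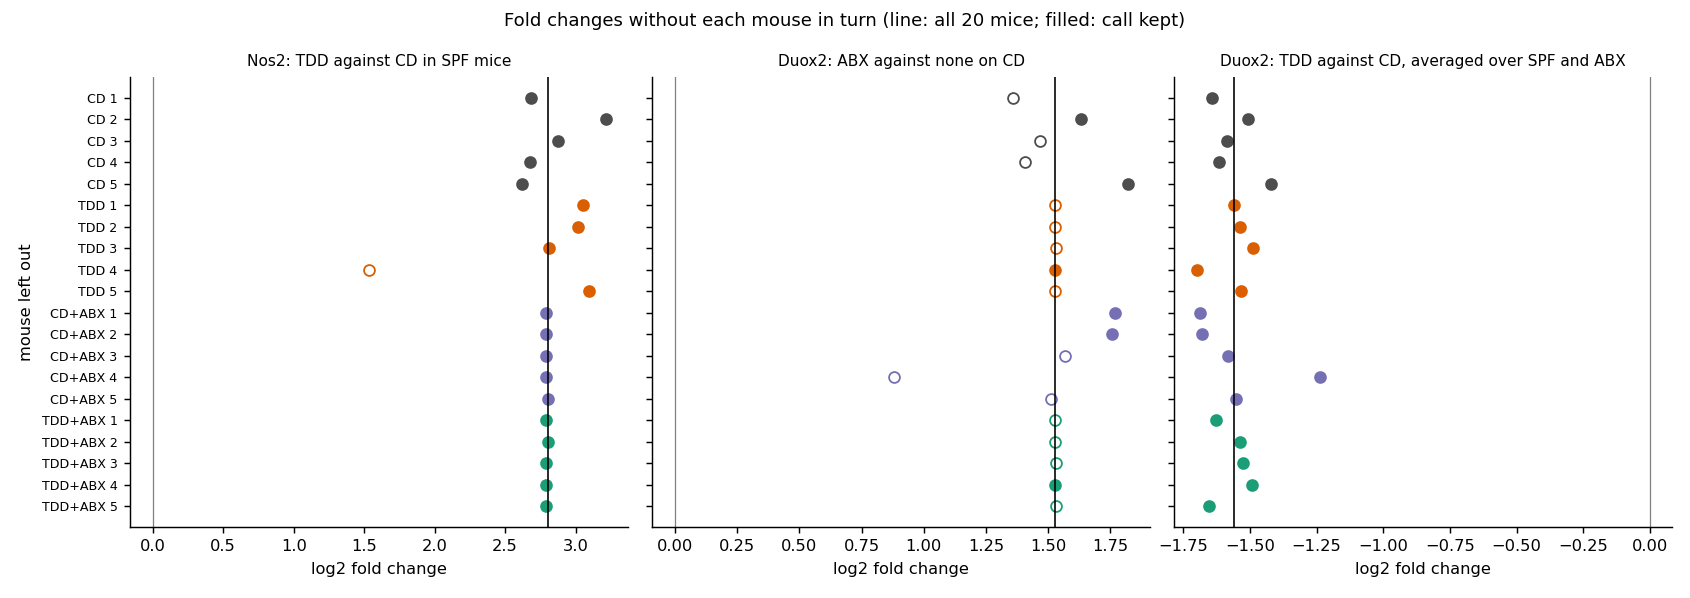
Log2 fold change (x axis) after leaving out each mouse in turn (y axis), for Nos2 in TDD against CD in SPF mice, Duox2 in CD+ABX against CD, and Duox2 in TDD against CD averaged over SPF and ABX; filled points kept the call and the black line is the value with all 20 mice. Nos2 drops to 1.54 without TDD mouse 4, Duox2 with ABX on CD drops to 0.88 without CD+ABX mouse 4, and the averaged diet effect on Duox2 stays between -1.70 and -1.24 with every point filled.

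Duox2 went the other way from Nos2. In CD mice 1 to 5 it stood at 9.34, 24, 15.9, 12.5 and 32.5 CPM. In TDD mice 1 to 5 it stood at 8.13, 7.19, 4.51, 14.1 and 7.08 CPM. Mouse 4 was the only TDD mouse above the lowest CD mouse, and the other 4 lay below all CD mice.

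With ABX the levels were higher in CD mice, at 15.1, 17, 48.6, 134 and 56.7 CPM in CD+ABX mice 1 to 5. TDD+ABX mice 1 to 5 stood at 19, 12.6, 11.2, 8.34 and 21.3 CPM. CD+ABX mice 3, 4 and 5 exceeded every mouse of the other 3 groups, while mice 1 and 2 lay within the range of CD mice.

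Over SPF and ABX-treated mice together, Duox2 was 2.95-fold lower on TDD (log2 fold change -1.56, standard error 0.36, q = 0.00521, edgeR). This was called in every fit that left out 1 mouse, and with DESeq2, limma-voom and limma on TPM. The log2 fold change was -1.21 ± 0.51 (SE) among SPF mice (q = 0.12, edgeR) and -1.91 ± 0.50 (SE) among those given ABX (q = 0.0577, edgeR), neither of which was called. The difference between them was not significant (log2 difference -0.70, standard error 0.70, q = 0.843, edgeR).

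Duoxa2, the partner that Duox2 needs to leave the endoplasmic reticulum, followed it closely. In CD mice 1 to 5 it stood at 1.51, 3.07, 1.72, 1.33 and 2.88 CPM and in TDD mice at 1.43, 1.6, 0.559, 2.15 and 1.41 CPM. CD+ABX mice had 1.61, 2.45, 6.24, 20.9 and 7.56 CPM, and TDD+ABX mice had 3.1, 1.7, 1.43, 1.69 and 2.39 CPM. The same 3 CD+ABX mice, 3, 4 and 5, were above all others.

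Averaged over SPF and ABX-treated mice, Duoxa2 was 2.36-fold lower on TDD (log2 fold change -1.24, standard error 0.37, q = 0.0254, edgeR). Its log2 fold change was -0.56 in SPF mice (q = 0.524, edgeR) and -1.91 in ABX-treated mice (q = 0.066, edgeR). The averaged call was lost without CD+ABX mouse 4 (log2 fold change -0.85, q = 0.0594, edgeR). It was also lost with limma-voom (q = 0.118) and with limma on log2(TPM + 1) or log2(TPM + 0.1).

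Across the 20 mice, Duoxa2 was the gene most like Duox2 of all genes tested, with a Pearson r of 0.950 on log2(CPM + 1) and a Spearman rho of 0.916. Without the 2 mice farthest from the median of Duox2, CD+ABX mice 4 and 5, r was 0.907, and after each group's mean was taken out it was 0.941. Gpx2 had an r of 0.759 (rho = 0.698) with Duox2 over the 20 mice, and 0.786 within groups. The ratio of Duox2 to Duoxa2 counts lay between 4.49 and 11.3 in single mice. Next in likeness to Duox2 came Pla2g4c, a cytosolic phospholipase (r = 0.916, rho = 0.904, and 0.880 without those 2 mice), and Gsdmc3, a gasdermin (r = 0.880, rho = 0.896, 0.888 without them). Those most like Duoxa2 after Duox2 were Hmx3, a homeobox factor (r = 0.850, rho = 0.713, 0.794 without the same 2 mice), and Pla2g4c (r = 0.850, rho = 0.783, 0.817 without them). These values describe the genes chosen as most alike and carry no test.

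**Figure D3:**
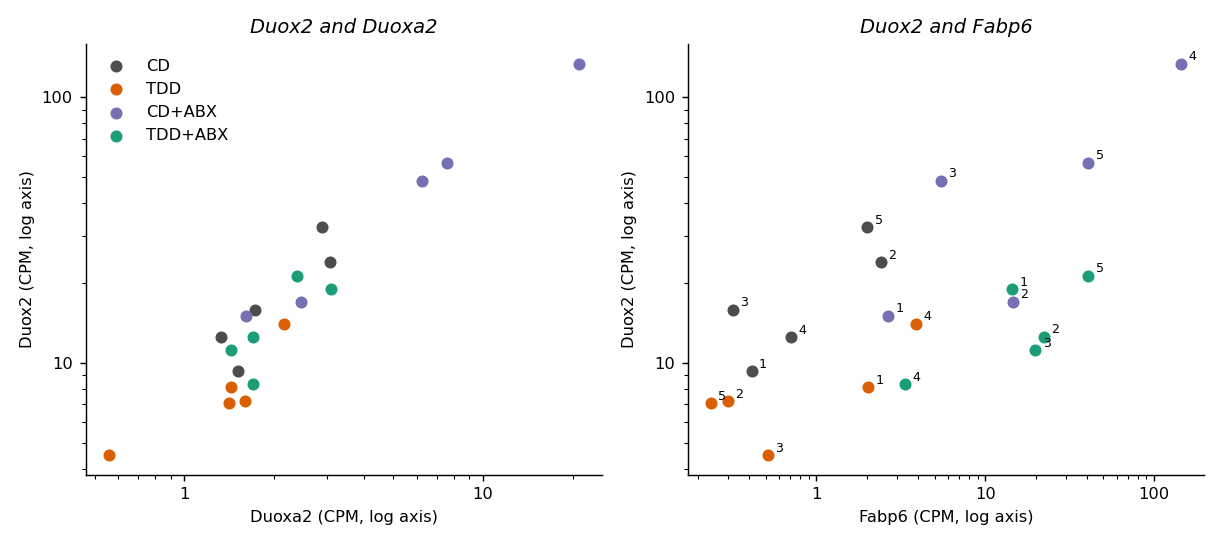
Duox2 against Duoxa2 (left) and against Fabp6 (right) in the 20 mice, in CPM on log axes, coloured by group, with mouse numbers in the right panel. Duox2 and Duoxa2 lie along a single line through all 4 groups, and CD+ABX mouse 4 has the most of Duox2 (134 CPM), Duoxa2 (20.9 CPM) and Fabp6 (144 CPM).

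ABX treatment of CD-fed mice raised Duox2, Duoxa2 and Gpx2, that is 3 of the 6 tested genes, where 2.30% of all tested genes were called. The levels of these 3 genes moved together across mice (r with Duox2 of 0.950 for Duoxa2 and 0.759 for Gpx2), so the 3 calls are not independent. The log2 fold changes were 1.53 for Duox2 (standard error 0.50, q = 0.0489, edgeR) and 1.88 for Duoxa2 (standard error 0.52, q = 0.0229, edgeR). Without CD+ABX mouse 4 they were 0.88 (q = 0.216, edgeR) and 1.10 (q = 0.105, edgeR). The Duox2 call was lost in 14 of the 20 fits that left out 1 mouse and that of Duoxa2 in 4, and both were lost when only the CD groups were fitted (q = 0.126 and q = 0.0794, edgeR) and with limma-voom (q = 0.131 and q = 0.108). The Duox2 call was lost with upper-quartile scaling (q = 0.0514, edgeR) and with no filter on low counts (q = 0.0593, edgeR) as well.

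On TDD, ABX gave log2 fold changes of 0.83 for Duox2 (q = 0.281, edgeR) and 0.53 for Duoxa2 (q = 0.517, edgeR). Averaged over the diets, Duox2 was 2.26-fold higher with ABX (log2 fold change 1.18, standard error 0.35, q = 0.018, edgeR) and Duoxa2 was 2.31-fold higher (1.21, standard error 0.37, q = 0.0192, edgeR). Both fell short of 2-fold without CD+ABX mouse 4, at 0.86 (q = 0.0421, edgeR) and 0.82 (q = 0.0453, edgeR). Both were called with DESeq2 (q = 0.00775 and q = 0.00284), but neither with limma-voom (q = 0.0665 and q = 0.0953). With limma on log2(TPM + 1), Duox2 was below 2-fold (q = 0.0337) and Duoxa2 did not pass (q = 0.057).

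Gpx2 was the member whose CD and CD+ABX groups separated fully. CD mice 1 to 5 had 76.8, 134, 78.1, 106 and 143 CPM and CD+ABX mice had 156, 174, 252, 263 and 266 CPM, so every CD+ABX mouse was above every CD mouse. TDD mice had 164, 118, 75.9, 149 and 99.1 CPM. TDD+ABX mice had 198, 161, 154, 97.8 and 199 CPM, and TDD+ABX mouse 4 lay below 4 of the 5 TDD mice.

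ABX raised Gpx2 on CD, where the group mean was 108 ± 30.8 CPM without it and 222 ± 52.9 CPM with it (SD, n = 5). The difference was 1.05 ± 0.24 on the log2 scale (SE, q = 0.00774, edgeR). This passed with limma-voom, with limma on TPM and with DESeq2. The fold change was close to the limit of 2 and dipped under it without CD mouse 1, CD mouse 3, CD+ABX mouse 4 or CD+ABX mouse 5 (lowest log2 fold change 0.95), while the highest q over all fits that left out 1 mouse was 0.0245 (edgeR). On TDD the log2 fold change with ABX was 0.42 (standard error 0.24, q = 0.239, edgeR), and the difference from CD did not pass (-0.62, standard error 0.34, q = 0.618, edgeR). The diets did not differ detectably, with log2 fold changes of 0.17 ± 0.24 (SE) in SPF mice (q = 0.691, edgeR) and -0.46 ± 0.24 (SE) with ABX (q = 0.385, edgeR).

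Of all genes tested, Gsr, the glutathione reductase that restores the substrate of Gpx2, was the most like it over the 20 mice (r = 0.900, rho = 0.871, and 0.868 without CD+ABX mice 4 and 5). Pin4 (r = 0.866, rho = 0.892, 0.872 without them) and Mycbp (r = 0.862, rho = 0.881, 0.803 without them) came next. Gsr itself stood at 98.9 ± 13.1 CPM in CD mice and at 156 ± 16.5 CPM in CD+ABX mice (SD, n = 5). It was 1.58-fold higher with ABX (q = 0.000903, edgeR), below the 2-fold limit, and its groups did not overlap.

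Other genes moved with ABX in the same mice. Fabp6 was higher with ABX on CD (log2 fold change 5.14, q = 0.0043, edgeR). It was 2.65, 14.6, 5.46, 144 and 40.7 CPM in CD+ABX mice 1 to 5, so mouse 4, with the most Duox2, also had the most Fabp6. However, mouse 3 had more Duox2 than mouse 2 (48.6 against 17 CPM) but less Fabp6. Slc10a2 (log2 fold change 4.07, q = 7.59e-05, edgeR), Fabp2, an enterocyte fatty acid-binding protein, and Car4, a carbonic anhydrase, were also called higher on CD. Apoa4, a proximal gut apolipoprotein (log2 fold change -1.61, q = 0.0054, edgeR), and the disaccharidase Sis were called lower. T cell markers were lower, with 5 of 8 called on CD (Cd3e, Cd3g, Cd8a, Trac and Lck), against 2.30% of all genes. The T cell sum was between 21.9 and 28.4 CPM, against 44.0 to 116 CPM without ABX. The macrophage sum was 176 to 197 CPM in CD+ABX mice, below all CD mice, with 8 of 12 markers lower at q below 0.05 (edgeR), against 12.8% of all genes in either direction, and none by 2-fold. Averaged over the diets, 6 of 8 T cell markers and 6 of 8 B cell and follicle markers were called lower with ABX, against 2.36% of all genes. The part of gut region or of these cells in the higher Duox2, Duoxa2 and Gpx2 was not tested.

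Lcn2 (ENSMUSG00000026822.14, chromosome 2, 32384633 to 32388252, minus strand) was low in all groups. It lay between 0.936 and 1.98 CPM in CD mice, between 1.84 and 2.81 CPM in TDD mice, between 1.13 and 1.82 CPM in CD+ABX mice and between 1.45 and 2.36 CPM in TDD+ABX mice. CD mouse 2 reached the TDD range and kept the groups from separating. On TDD it was 1.54-fold higher among SPF mice (0.62 ± 0.18 on the log2 scale, SE, q = 0.0293, edgeR) and 1.37-fold on average over SPF and ABX-treated mice (0.46, standard error 0.13, q = 0.0207, edgeR), both below the 2-fold limit. Among SPF mice, q rose above 0.05 without CD mouse 1 (q = 0.072, edgeR) and with only the SPF groups fitted (q = 0.0757, edgeR). It did so too with no filter (q = 0.0539, edgeR) and with limma on log2(TPM + 1) (q = 0.0524). It stayed below 0.05 with DESeq2 (q = 0.0114) and limma-voom (q = 0.023). With ABX the log2 fold change for diet was 0.29 (q = 0.492, edgeR). ABX gave 0.07 on CD (q = 0.859, edgeR) and -0.26 on TDD (q = 0.354, edgeR). Lcn2 thus showed in no mouse the large excess that Nos2 showed in TDD mouse 4, where Lcn2 was 1.84 CPM, the lowest of its group. The genes most like it were Eif3e (r = 0.823, rho = 0.830, 0.820 without TDD mouse 1 and CD mouse 1), Xrcc5 (r = 0.815, rho = 0.841, 0.806) and Aebp2 (r = 0.808, rho = 0.853, 0.811).

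Sod2 (ENSMUSG00000006818.5, chromosome 17, 13006846 to 13040063, plus strand) differed little between the groups. CD mice held 82.7 ± 6.31 CPM, against 71.1 ± 4.01 CPM in TDD mice (SD, n = 5), and CD mouse 2, at 75.3 CPM, and TDD mouse 1, at 76.4 CPM, were the pair that overlapped. The log2 fold change was -0.22 (standard error 0.05, q = 0.0113, edgeR). With ABX, CD-fed mice held 78.5 ± 3.68 CPM, against 73.9 ± 2.55 CPM in TDD-fed mice (SD, n = 5), a log2 fold change of -0.09 (q = 0.484, edgeR), and averaged over both settings it was 1.11-fold lower on TDD (log2 fold change -0.15, standard error 0.04, q = 0.00994, edgeR). The genes most like Sod2, which is a mitochondrial enzyme, were Ndufb4 (r = 0.888, rho = 0.914, 0.883 without CD mouse 3 and TDD mouse 4) and Ndufa12 (r = 0.876, rho = 0.908, 0.858), both of respiratory complex I, and Ost4 (r = 0.872, rho = 0.913, 0.879).

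The pattern of Nos2 was most like that of the immunoglobulin segments Igkv4-86 (r = 0.823, rho = 0.517) and Ighv1-4 (r = 0.797, rho = 0.405) and of the homeobox gene Barx2 (r = 0.790, rho = 0.657). Without TDD mice 3 and 4, r fell to 0.313, 0.270 and 0.524. The likeness to the 2 segments thus rested largely on these 2 mice, and that to Barx2 only in part. Segments of these families are near-identical and their counts are uncertain.

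Nox1 (ENSMUSG00000031257.14, chromosome X, 134086421 to 134221956, minus strand), best known from the colon, was barely detected. Single mice had between 1 and 10 counts, with totals over 5 mice of 26 counts in CD, 30 in TDD, 17 in CD+ABX and 20 in TDD+ABX. The highest level was 0.275 CPM in TDD mouse 4. A difference between groups was not detectable at this depth.

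**Figure D4:**
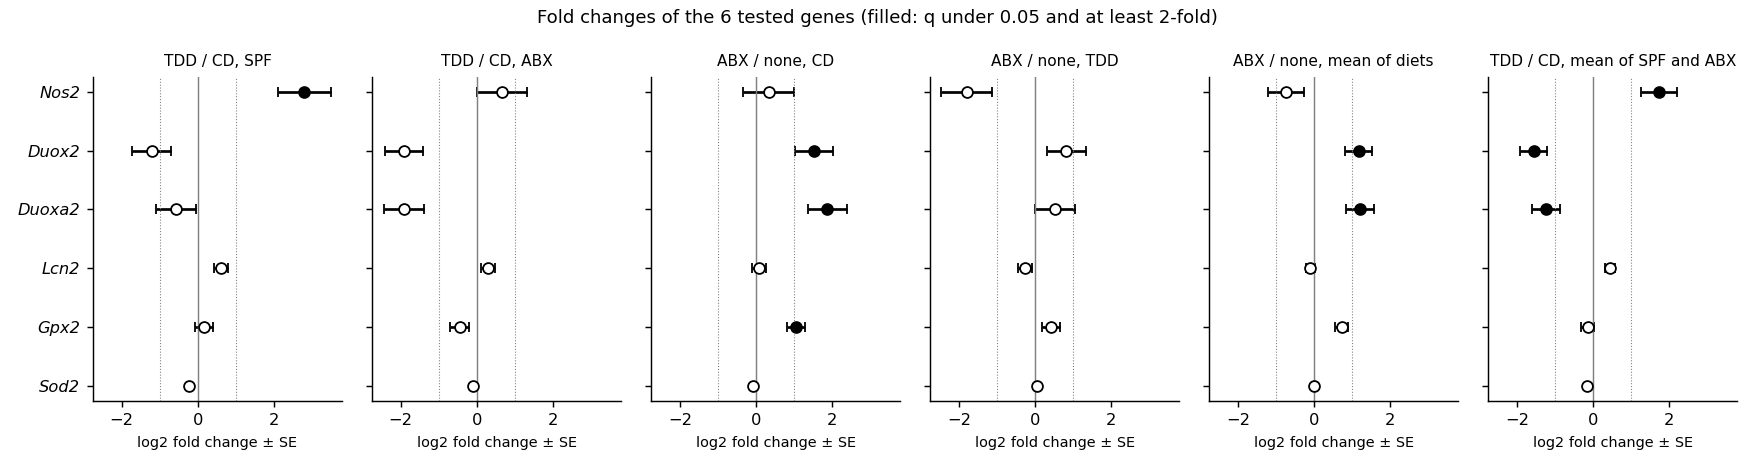
Log2 fold change with its standard error for the 6 tested genes (y axis) in 6 comparisons (panels), with dotted lines at a 2-fold change and filled points for calls. Nos2 lies to the right and Duox2 and Duoxa2 to the left of 0 in all diet panels, while the antibiotic panels show Duox2, Duoxa2 and Gpx2 to the right.

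Counted over the 6 tested genes, TDD in SPF mice called 1 (Nos2), against 1.84% of all genes tested, and 3 passed q below 0.05 with no limit on the fold change, against 14.4%. No gene of the set separated CD from TDD mice without overlap in SPF mice, where 9.58% of all genes did so. In ABX-treated mice, edgeR called 0 for diet, against 0.331%, with 2 at an unadjusted p below 0.05 (Duox2 and Duoxa2), while DESeq2 called 2 and limma-voom 0. Non-overlapping groups were found for 0 of the 6 here and for 4.78% of all genes. Here and below, counts at an unadjusted p and those of DESeq2 and limma-voom have no share over all genes beside them. They are therefore not read as a result about the set.

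With ABX on CD, Gpx2 was the 1 gene without overlap, against 9.74% of all genes. With ABX on TDD, edgeR called 0, against 1.67%, with 1 at an unadjusted p below 0.05 (Nos2), DESeq2 called 1 and limma-voom 0, and 0 were without overlap, against 11.0%. The interaction of diet and ABX called 0, against 0.0245%, with 1 at an unadjusted p below 0.05 (Nos2), and DESeq2 and limma-voom called 0 as well. Averaged over the diets, ABX called 2, against 2.36%, and 3 passed q below 0.05 alone, against 28.5%. Averaged over SPF and ABX, diet called 3 (Nos2 higher, Duox2 and Duoxa2 lower), against 1.17%, and 5 passed q below 0.05 alone, against 17.8%. The comparisons share groups of mice, and Duox2, Duoxa2 and Gpx2 moved together across mice, so the counts are not independent.

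The wider pathway was read from 5 lists. Of 19 other oxidant sources, 14 were tested and 0 were called for diet in SPF mice, against 1.84% of all genes. None passed q below 0.05 there either, against 14.4%. On CD, ABX lowered Rac2, a GTPase of the phagocyte oxidase, from a mean of 21.6 ± 6.26 CPM to 10.7 ± 2.12 CPM (SD, n = 5). The log2 fold change was -1.01 (q = 0.0312, edgeR). Rac2 was the only call of the list there, against 2.30% of all genes, and the list's median was -0.22, against 0.00 over all genes. With ABX, 3 of the 14 were lower and 0 higher at q below 0.05 (edgeR) on each diet, against 12.8% on CD and 15.5% on TDD. Averaged over the diets, 6 were lower and 1 higher, against 28.5%. Duoxa1, Nox3, Mpo, Epx and Lpo were too low to test. Duox1, the relative of Duox2, did not exceed 0.642 CPM, and the Nox1 partners Noxo1 and Noxa1, named for their role after their values were seen, kept group means of 34.3 to 36.8 and 5.97 to 6.97 CPM.

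Among 11 genes of the supply of arginine and cofactor to nitric oxide synthases, Ddah1 was the only one called in the 4 comparisons between groups. In these comparisons, 0.331% to 2.30% of all genes were called. Ddah1 removes methylated arginines that inhibit these enzymes. Ddah1 was 3.97, 6.63, 2.65, 5.32 and 5.09 CPM in CD mice 1 to 5 and 13.7, 14, 19.8, 19 and 15.8 CPM in TDD mice, which did not overlap (log2 fold change 1.80, standard error 0.22, q = 4.92e-05, edgeR). CD+ABX mice had 17.6, 19.8, 16.7, 20.9 and 25.7 CPM (log2 fold change against CD 2.09, standard error 0.22, q = 4.5e-05, edgeR), and CD served as the control in both comparisons. TDD+ABX mice had 33.7, 30.4, 35.1, 16.3 and 30.1 CPM. Unlike Nos2, Ddah1 rose in all 5 TDD mice.

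Of 28 further antioxidant enzymes, all tested, 0 were called in any of the 4 comparisons between groups, where 0.331% to 2.30% of all genes were called. Without the fold limit, 2 were higher and 5 lower on TDD in SPF mice, where 14.4% of all genes passed in either direction. With ABX, 5 were higher and 2 lower on CD, against 12.8% of all genes, and 7 were higher and 3 lower on TDD, against 15.5%. The medians of the list were -0.11, -0.04 and 0.09 on the log2 scale in these 3 comparisons, against 0.01, 0.00 and -0.03 over all genes.

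The upstream signals changed little in size or were too low to measure. Of 29 genes, 24 were tested, and Il17a, Il17f, Il22, Ifng and Il6 were not, with no mouse above 0.21 CPM. No gene of the list was called for diet, against 1.84% of all genes in SPF and 0.331% in ABX-treated mice. None was called for ABX on CD, against 2.30%. The decoy receptor Il22ra2 was called lower with ABX on TDD (log2 fold change -1.06, q = 0.0105, edgeR), against 1.67%. With ABX, 18 of the 24 were lower on CD and 20 on TDD (medians -0.15 and -0.17), against 8329 and 8888 of 16306 genes. Averaged over the diets, 7 were lower and 1 higher at q below 0.05 (edgeR), against 28.5% in either direction.

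Of 16 microbe-induced epithelial defence genes other than the 7, 13 were tested. On TDD in SPF mice, 2 were called higher and 1 lower, against 1.84% of all genes. The antimicrobial lectin Reg3b was higher (log2 fold change 1.88, standard error 0.57, q = 0.0323, edgeR), at 3195, 2352, 577, 7580 and 518 CPM in TDD mice 1 to 5. Ido1, which degrades tryptophan, was lower (-1.42, q = 0.0137, edgeR). Ido1 was the only gene of this list called for diet in ABX-treated mice, against 0.331% of all genes. It was lower on TDD there as well (-1.57, standard error 0.37, q = 0.0386, edgeR). It stood at 7.05, 9.2, 6.53, 14.6 and 11 CPM in CD+ABX mice 1 to 5 and at 3.9, 2.48, 3.6, 3.98 and 2.37 CPM in TDD+ABX mice, so these groups did not overlap. Saa1 was called higher as well but rested on TDD mouse 4, since the other 19 mice had at most 0.251 CPM. It was tested through that mouse alone. TDD mice 1 and 2 were thus high in Reg3b at 5.72 and 8.11 CPM of Nos2, and mouse 3 had 21.6 CPM of Nos2 without high Reg3b.

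With ABX on TDD, where Duox2 was not called, 6 of the 13 genes of this list were called lower (Reg3g, Reg3b, Saa1, Cxcl2, Tifa and Ubd) and 0 higher, against 1.67% of all genes, with a median of -1.43 against -0.03 over all genes. Reg3b was 11.5-fold and Reg3g 9.45-fold lower (q = 0.00157 and q = 0.00221, edgeR), and Tifa, an adaptor for bacterial sugar sensing, fell 3.07-fold (q = 0.000182, edgeR). Saa1 and Cxcl2 were tested only because TDD mouse 4 (3.77 CPM of Saa1) and TDD mouse 5 (0.612 CPM of Cxcl2) reached 0.5 CPM. Their calls as lower with ABX, here and averaged over the diets, therefore carry no weight. Cxcl2 did not exceed 0.612 CPM in any mouse, so the size of its change is uncertain as well. On CD, where Duox2 was called higher, Ubd was the 1 gene of the 13 called (lower, log2 fold change -1.82, q = 0.0425, edgeR), against 2.30% of all genes, and the median was -0.52. Averaged over the diets, 7 were called lower and 0 higher, against 2.36%, with Saa1 and Cxcl2 again among the 7.

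**Figure D5:**
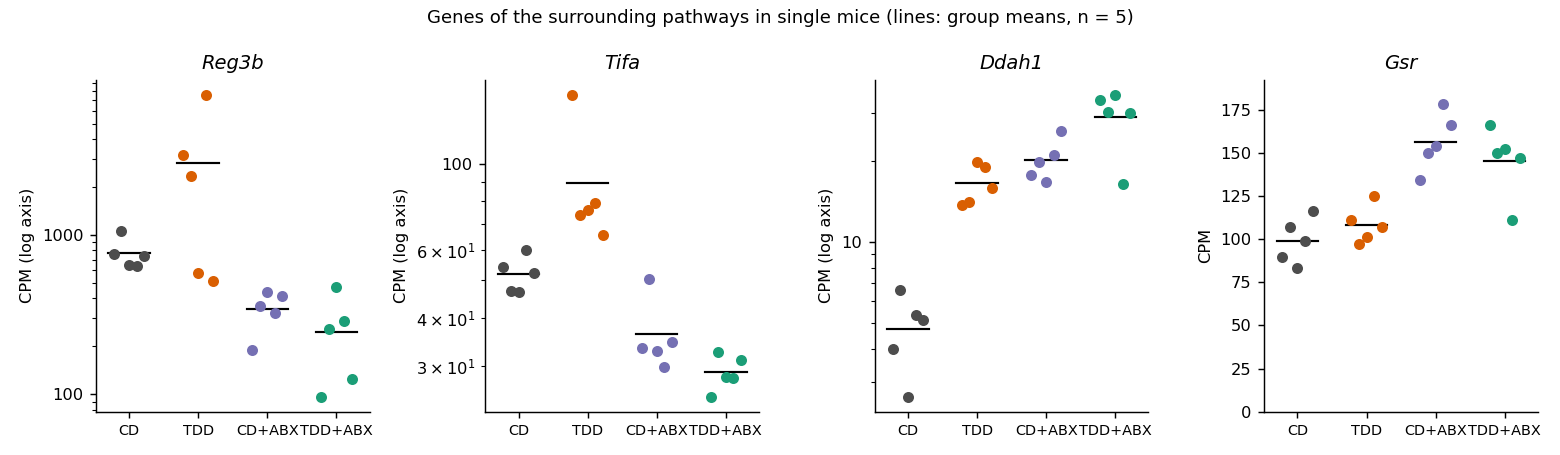
CPM of Reg3b, Tifa, Ddah1 and Gsr in single mice, with a line at each group mean (n = 5); axes are logarithmic where so labelled and start at 0 otherwise. Reg3b and Tifa are lower in every TDD+ABX mouse than in any TDD mouse, Ddah1 is lowest in the 5 CD mice, and Gsr is higher in every CD+ABX mouse than in any CD mouse.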

How the data were processed

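Poly-A RNA of the ileum of 20 mice was sequenced, and the authors assigned reads to the mouse transcriptome with kallisto 0.44.0, with GRCm38 and mm10 as the builds in the submitters' processing notes. What the authors deposited were unnormalized estimated counts by gene (36676963 to 58662617 per mouse), beside estimated counts and TPM by transcript. TPM, as deposited per transcript, were summed per gene after 111362 of 113193 transcripts were matched to GENCODE M21 by identifier without version. Of the Gpx2 counts, 95.8% were assigned to a processed transcript and 1.94% to the protein-coding one, so the gene's sum was used.

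The counts were rounded, scaled by TMM and given as CPM. Genes that reached 0.5 CPM in 1 mouse or more entered the quasi-likelihood test of edgeR 4.0.16 (R 4.3.3), with the 4 groups of 5 mice in 1 fit. A call needed q, the p-value adjusted by Benjamini-Hochberg over all genes tested, below 0.05 and a change of 2-fold or more. These are the thresholds of the study, which names no test. DESeq2 1.42.0, limma 3.58.1 (voom, and log2(TPM + 1) or log2(TPM + 0.1)), other scalings and filters, and fits without each mouse were the alternatives. The edgeR script was tested on simulated data.

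All 7 genes are named in every comparison. From 5 pathway lists (103 genes), those called in any of the 4 comparisons between groups are named, and for each of the 6 tested genes the 3 with the highest Pearson r of log2(CPM + 1) over the 20 mice. From 10 marker lists (81 genes), sums, counts of calls and called genes are given, except that some gene names are not reported here. The 7 genes and the lists were chosen with earlier results of these data known. No 2 mice of a group had near-identical counts, so each was used as 1 replicate. Promoter windows came from RefSeq (GRCm38.p6) and were matched by symbol for 6 of the 7 genes.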

Additional observations from a re-analysis of the deposited data

Results flagged for a closer look

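In a group of 5 mice, a mouse was listed when its gap to the next mouse exceeded 0.71 of the group's range (Dixon's test), which chance does in about 1 of 20 groups. Over the 7 oxidant defence genes and the 10 named pathway genes, 68 groups were examined and 9 mice were listed. The only value in the 7 genes was that of Nos2 in TDD mouse 4, at 76 CPM, where the other TDD mice lay between 2.26 and 21.6 CPM. The same mouse was listed for Reg3g, at 1875 CPM against 113 to 523 CPM, and for Saa1, at 3.77 CPM against 0.0621 to 0.251 CPM. TDD mouse 1 was listed for Tifa, at 151 CPM against 65.7 to 79.2 CPM, and CD+ABX mouse 2 for the same gene, at 50.4 CPM against 29.9 to 34.7 CPM. TDD mouse 5 had 0.612 CPM of Cxcl2, against 0.055 to 0.145 CPM. TDD+ABX mouse 5, whose B cell and follicle markers summed to 126 CPM, had 20.6 CPM of Rac2, against 7.62 to 10 CPM, and 2.68 CPM of Ubd, against 0.248 to 0.76 CPM. TDD+ABX mouse 4 was low in Ddah1, at 16.3 CPM against 30.1 to 35.1 CPM. The causes were not tested. CD+ABX mouse 4, without which the Duox2 and Duoxa2 calls with ABX were lost, was not listed for either gene. The calls with ABX on CD were also lost without some other single mice.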

How the results depend on the processing

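Of the 6 tested genes, edgeR called 1 for TDD in SPF mice, 0 for TDD in ABX-treated mice, 3 for ABX on CD, 0 for ABX on TDD, 0 for the interaction, and 2 and 3 for the averaged ABX and diet effects. In SPF mice, 0 were called for diet when only the compared groups were fitted, with limma-voom and with limma on log2(TPM + 1) or log2(TPM + 0.1), and 3 without the fold limit. In ABX-treated mice, DESeq2 called 2 for diet. For ABX on CD, 1 was called with only the compared groups, limma-voom or either TPM scale. For ABX on TDD, DESeq2 called 1. For the averaged ABX effect, limma-voom and log2(TPM + 1) called 0 and log2(TPM + 0.1) called 1. For the averaged diet effect these 3 called 1, and 5 passed without the fold limit. With upper-quartile scaling and with no filter, 2 rather than 3 were called for ABX on CD, since Duox2 was lost. RLE scaling and the stricter filter kept each count. The reason for these differences was not tested.

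Leaving out 1 mouse gave 0 to 1, 0 to 2, 0 to 3, 0 to 1, 0 to 2 and 2 to 3 calls for the 6 comparisons other than the interaction, in the order above. In SPF mice the Nos2 call for diet was lost without TDD mouse 4. For ABX on CD, 0 were called without CD mouse 1, CD mouse 3 or CD+ABX mouse 4, and 1 without CD mouse 4 or CD+ABX mouse 5. The averaged ABX calls were lost without CD+ABX mouse 4. For diet with ABX, calls of Duox2 or Duoxa2 appeared without CD mouse 2, CD+ABX mouse 1 or CD+ABX mouse 2, and for ABX on TDD a call of Nos2 appeared without TDD mouse 1 or TDD mouse 5.

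The direction turned only for values near 0. The log2 fold change of Sod2 averaged over diets with ABX was -0.01, and was 0.0075 with RLE scaling, 0.0039 with no filter, 0.0056 with the filter of 5 mice, 0.0076 with DESeq2, and 0.042 and 0.043 on the 2 TPM scales. Without single mice it lay between -0.023 and 0.014. That of Lcn2 with ABX on CD was -0.046 without CD mouse 1, the lowest of a range up to 0.21.

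Replicate numbers did not pair the mice, which were different animals. The correlations of same-numbered mice lay between -0.382 and 0.256, with 5 of 30 above 0.1. With the number as a replicate block, 1 gene rather than 3 was called for ABX on CD, and every other count stayed the same. Counting depth limited Nox1, and 5 mice a group limited the genes that differ widely between mice.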

Other observations

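Markers of the cell types of the ileum differed in how many were called. None of 7 crypt stem cell, 7 goblet cell and 6 smooth muscle markers was called in the 4 comparisons between groups, where 0.331% to 2.30% of all genes were called. None of the 8 B cell and follicle markers was called in these 4 comparisons either, but 6 were called lower with ABX averaged over the diets, against 2.36% of all genes, and Cd79b was called higher on TDD averaged over SPF and ABX-treated mice. Their sum ranged from 3.13 CPM in CD+ABX mouse 1 to 179 CPM in TDD mouse 4. Of 7 Paneth cell markers, Pla2g2a was called higher on TDD in SPF mice, from 18.8 ± 2.59 CPM to 39.2 ± 6.1 CPM (SD, n = 5). Of 8 T cell markers, 5 were called lower with ABX on CD, 1 (Trac) on TDD and 6 averaged over the diets. Of 10 enterocyte markers, 3 were called higher and 2 lower with ABX on CD, and 3 higher and 1 lower on TDD. Of 6 colon epithelium markers, 4 were tested and Car4 was called higher with ABX on CD, from 73.2 ± 26.7 to 179 ± 18.5 CPM (SD, n = 5).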
